A study of Mus musculus with 2 samples.

Results

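The regions described here are intronic sites of open chromatin that lie 1 to 10 kb downstream of the 5' end of a protein-coding gene. They come from DNase-seq of heart tissue of male B6CASTF1/J mice aged 14 days, the first-generation cross of C57BL/6J with CAST/EiJ, with 1 group, 2 biological replicates and no contrast. The label of replicate 1 names 3 males, the label of replicate 2 gives no number, and whether hearts were pooled is not stated. A region is a merged peak with a peak in each replicate that lies over 1 kb from all protein-coding starts that GENCODE M21 annotates. Its middle base is in the body of a protein-coding gene, outside protein-coding exons and 1 to 10 kb downstream of that gene's 5' end. Of 158036 merged peaks on mm10, 104208 had a peak in each replicate, and 5591 of these (5.37%) met this rule. They fell in 3985 of 21938 protein-coding genes, and 63 lay within more than 1 gene, which gave 5655 pairs of a region and a gene.

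DNase I cuts DNA where nucleosomes have been displaced, so a peak of cuts marks a promoter, an enhancer, an insulator or another site held open by bound proteins. Within a peak, a bound protein can shield its own bases from the enzyme, and the short protected stretch is called a footprint. The first introns of genes are known to hold enhancers and, in many genes, alternative promoters. Peak signal below is the authors' own value per peak, whose exact scaling is not stated, and where a region held several peaks of a replicate the highest was taken.

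Replicates 1 and 2 had 143122 and 125118 peaks and 350009 and 335568 footprints. A gene's promoter is called open below where each replicate had a peak within 1 kb of any of its starts. By this rule promoters were open for 7 of 7 heart muscle markers, 3 of 3 endothelial and 3 of 3 fibroblast markers, 1 of 3 leukocyte markers (not open for Ptprc and Csf1r), and 0 of 3 liver and 0 of 3 lung markers.

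The sequences of 7 regions are shown first, since consensus letters inside footprints are the main feature that the rule did not use. All are reference bases of mm10 (GRCm38, the C57BL/6J strain) on the plus strand, so bases of the CAST/EiJ chromosome may differ. Capitals mark matches to the 6 consensus forms named next that lie in a footprint of both replicates, with 10 bp allowed either side. Matches to the other motifs searched are in lower case even where footprinted, namely the HAND and TWIST E-box CAGATG in Arid3b and Ccnd3 and the ZEB site CACCTG in Ccnd3. Motifs were searched on both strands: TGACGTCA, known to be bound by CREB and related factors, GGGCGGGG, bound by KLF and SP proteins, CAGCTG, an E-box bound by basic helix-loop-helix proteins such as MYOD and labelled MYOD E-box in the plot of motifs, and TGANTCA, bound by AP-1. The longer consensus of CTCF, the zinc-finger insulator protein, and that of the glucocorticoid receptor are given by name. A match is a description of letters and does not show which protein was bound. The first 5 are among the 10 regions with the highest mean signal, of Per1 and Nr1d1 (circadian clock repressors), Mxi1 (a MAX-binding repressor that opposes MYC), Arid3b (a DNA-binding protein) and Ccnd3 (cyclin D3, which drives the cell cycle).
Per1, chr11:69097001-69097240: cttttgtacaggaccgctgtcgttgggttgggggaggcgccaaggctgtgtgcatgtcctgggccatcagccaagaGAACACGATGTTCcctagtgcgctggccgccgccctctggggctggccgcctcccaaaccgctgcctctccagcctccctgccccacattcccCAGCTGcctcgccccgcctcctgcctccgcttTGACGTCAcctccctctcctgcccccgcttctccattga
Mxi1, chr19:53314281-53314420: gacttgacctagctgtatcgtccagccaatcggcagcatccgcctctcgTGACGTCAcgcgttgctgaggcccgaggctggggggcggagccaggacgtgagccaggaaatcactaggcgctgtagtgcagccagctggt
Nr1d1, chr11:98773851-98774150: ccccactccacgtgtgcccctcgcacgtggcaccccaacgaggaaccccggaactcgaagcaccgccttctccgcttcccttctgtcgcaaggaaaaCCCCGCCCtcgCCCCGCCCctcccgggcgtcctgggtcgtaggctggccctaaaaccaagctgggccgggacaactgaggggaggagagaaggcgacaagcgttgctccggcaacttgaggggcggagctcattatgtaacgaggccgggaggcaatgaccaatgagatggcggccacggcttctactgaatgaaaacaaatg
Arid3b, chr9:57831501-57831740: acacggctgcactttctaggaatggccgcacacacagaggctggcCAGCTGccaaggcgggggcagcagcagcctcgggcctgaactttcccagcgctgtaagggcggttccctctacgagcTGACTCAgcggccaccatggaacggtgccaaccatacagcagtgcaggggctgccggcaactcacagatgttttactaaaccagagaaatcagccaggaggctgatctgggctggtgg
Ccnd3, chr17:47511201-47511440: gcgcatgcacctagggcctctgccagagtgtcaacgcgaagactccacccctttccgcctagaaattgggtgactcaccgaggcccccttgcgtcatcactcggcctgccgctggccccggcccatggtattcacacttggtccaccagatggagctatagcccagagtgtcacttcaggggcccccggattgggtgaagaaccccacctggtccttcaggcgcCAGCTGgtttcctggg
The last 2 stand for genes with many regions, and carry an E-box in Jup (plakoglobin, a junction protein of the intercalated disc) and a CTCF match in Bcl6 (a transcriptional repressor).
Jup, chr11:100391231-100391530: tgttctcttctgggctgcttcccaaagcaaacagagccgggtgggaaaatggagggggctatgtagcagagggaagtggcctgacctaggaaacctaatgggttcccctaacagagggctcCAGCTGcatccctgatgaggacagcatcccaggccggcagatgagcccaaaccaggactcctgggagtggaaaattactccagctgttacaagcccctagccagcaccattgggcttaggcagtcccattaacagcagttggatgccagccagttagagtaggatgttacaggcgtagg
Bcl6, chr16:23984281-23984460: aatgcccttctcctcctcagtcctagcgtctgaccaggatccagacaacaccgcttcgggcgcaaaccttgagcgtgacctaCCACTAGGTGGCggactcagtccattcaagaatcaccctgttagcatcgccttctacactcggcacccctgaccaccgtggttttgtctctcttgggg
In Per1 the footprints held 3 of these consensus forms, from 5' to 3' a glucocorticoid receptor match, the E-box and TGACGTCA. In Nr1d1 they held a pair of copies of CCCCGCCC, the reverse complement of GGGCGGGG, 3 bases apart. The Nr1d1 and Jup regions were longer, and the middle 300 bases are shown.

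The 10 strongest regions had mean signals from 15.1 to 40, whereas the median was 1.04 in replicate 1 and 0.836 in replicate 2. The highest was in Kpna1, which encodes an importin, at chr16:35981661-35981820, where replicate 1 reached 44.4 and replicate 2 reached 35.6. It lay 2.99 kb downstream of the 5' end, and a start of a noncoding transcript lay within 1 kb. Of its 32-base words, 62.8% occurred elsewhere in the genome, up to 6 times in all, whereas none of the other 9 strongest regions held a repeated word. How reads from repeated sequence were treated is not given in the sources used here, and the part of repeated sequence in this signal was not tested. Over all regions, 92.6% held no repeated 32-base word, and in 38 regions more than 50% of words were repeated.

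Per1 followed, with 27.8 in replicate 1 and 19.8 in replicate 2, 1.90 kb downstream, and a second region 2.47 kb downstream had 4.56 and 3.09. The region of Nr1d1 (REV-ERB alpha), 1.33 kb downstream, had 21.8 and 14.5, and 9 and 6 footprints. Mxi1 had 22.3 and 17.3 at 3.83 kb. Mnt, which encodes another MAX partner, had 20.2 and 17.7 at 1.38 kb, and a region 7.71 kb downstream with 12.7 and 11.6 that lay within 1 kb of a RefSeq mRNA start. Zfp516 (a zinc-finger protein) had 22.5 and 15.4, and Hif3a (a hypoxia-inducible factor subunit) had 16.7 and 15.6, both within 1 kb of a RefSeq mRNA start. RefSeq mRNA starts here and below include those of computationally predicted transcripts. Smtn (smoothelin, of smooth muscle) had 17.3 and 13.9, and Arid3b had 16.1 and 14.0. Replicate 1 was the higher in all 10, as it was in 82.7% of all regions.

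Among motifs with at least 20 footprint matches in each replicate, CTCF letters stood apart in both the sequence and the footprints. Rarer forms were concentrated in footprints too. That of the factor YY1 was in 17 footprints of each replicate, against 2 and 0 moved windows. The form of NF1 was in 9 and 11, against 0 and 0. In 300 bp windows centred on the regions, 310 of 5591 (5.54%) held a CTCF match, whereas windows 1 kb away that touched no shared region held one in 0.103% of 9714, and 32851 RefSeq promoters of the same length in 0.557%. The RefSeq promoters here and below were taken from the annotation, whether or not a peak lay there, so they are not a set of open promoters. Of the 310 regions, 97.1% had a match within a footprint of replicate 1, 94.2% in replicate 2 and 93.5% in both, and the median distance from a match to the middle of its region was 9 bp. Footprints with a CTCF match had a median length of 30 bp in each replicate, whereas all footprints of these regions had medians of 11 and 10 bp. In replicate 1, 310 of 13981 footprints held a match and 3 of 26187 windows moved by 200 bp did so, and in replicate 2 the counts were 300 of 13890 and 3 of 25701. Such matches were as common elsewhere: 6.14% of regions in introns beyond 50 kb and 6.97% of all shared regions off promoters held one.

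Signal was higher in regions with CTCF letters. Their median signal was 2.64 in replicate 1 and 2.04 in replicate 2, against 0.993 and 0.812 in the 5281 without, and 97.1% against 84.7% had a footprint in both replicates. Among the 280 regions in the highest 5% by signal, 19.6% held CTCF letters, against 4.80% of the rest. This was not particular to CTCF, since KLF and SP letters were in 14.6% against 4.84%. Letters of GATA factors went the other way, with 7.86% against 12.1%. The share was 3.71% of 3668 regions in the first intron (95% Clopper-Pearson interval 3.12% to 4.37%) and 9.05% of 1923 in other introns (7.80% to 10.4%), and the intervals, which cover counting error only, did not overlap. It also rose with distance, from 4.37% at 1 to 4 kb to 6.12% at 4 to 7 kb and 6.81% at 7 to 10 kb. First introns held 86.9% of regions at 1 to 2 kb and 47.0% at 9 to 10 kb, and intron and distance were not separated. The strongest region with CTCF letters was in Nuak1, a kinase gene, with 16.5 and 11.1, followed by Parp16 with 15.2 and 11.2 and Pmp22 with 13.4 and 9.01, genes chosen after their values were seen. The Bcl6 region printed above was the strongest of that gene, with 9.62 and 7.07.

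**Figure D1:**
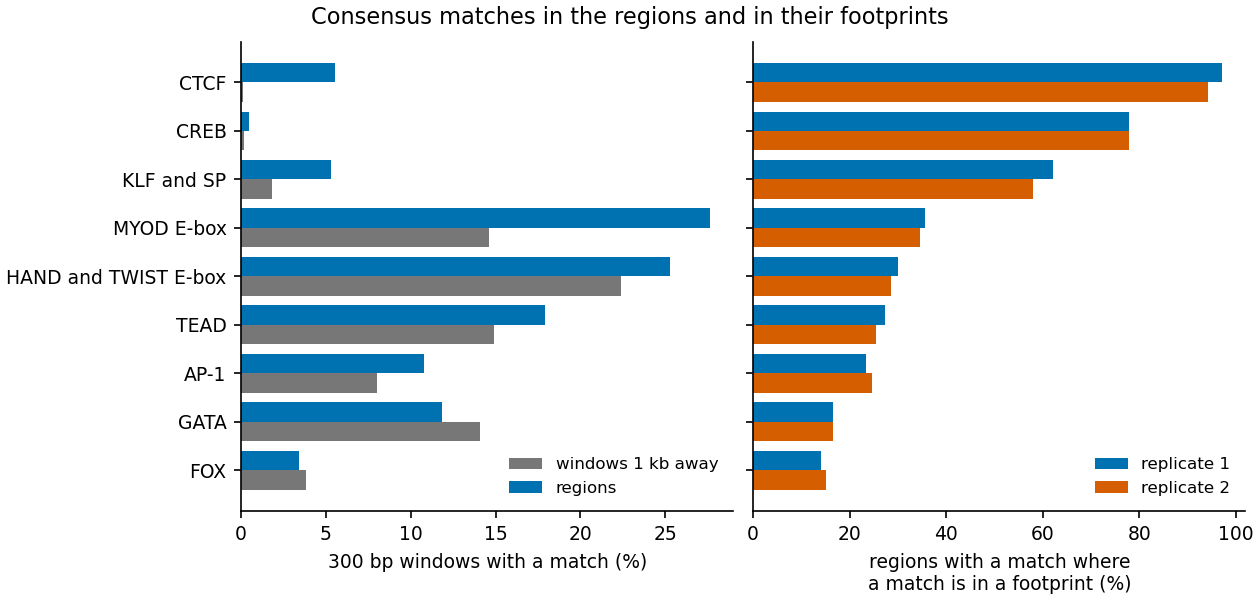
Consensus matches in the 5591 regions. The left panel gives the percentage of 300 bp windows with a match in the regions (blue) and in windows 1 kb away (grey), and the right panel, for regions with a match, the percentage where a match lay in a footprint of replicate 1 or 2. CTCF was at 97.1% and 94.2% on the right, and GATA at 16.6% in each replicate.

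GGGCGGGG, CAGCTG and TGACGTCA were denser in footprints than in moved windows in each replicate and under each alternative run for motifs. GGGCGGGG was found in 1.54% of footprints of replicate 1 and 1.48% of replicate 2, which was 6.22 and 6.77 times its share in moved windows (95% intervals 4.70 to 8.35 and 5.02 to 9.27). It was in the windows of 5.33% of regions, 1.81% of windows 1 kb away, 2.60% of regions in introns beyond 50 kb, 9.54% of all shared regions and 17.6% of RefSeq promoters. Its share fell with distance, from 6.93% of regions 1 to 4 kb downstream (5.95% to 8.02%) to 3.37% at 7 to 10 kb (2.51% to 4.42%). CAGCTG was found in 4.45% and 4.33% of footprints, 2.30 and 2.35 times its share in moved windows, and in 27.6% of regions against 14.6% of windows 1 kb away and 16.3% of RefSeq promoters. Other open regions held it as often or more often, with 27.4% of all shared regions, 30.1% of those off promoters and 31.2% of those in introns beyond 50 kb. Its footprint ratio in introns beyond 50 kb was 3.06 and 2.98. Regions with and without CAGCTG had the same median signal in replicate 1, 1.04, and 0.848 and 0.830 in replicate 2. TGACGTCA was rare, in 23 and 24 footprints, 6.15 times (2.56 to 17.0) and 14.8 times (4.50 to 76.8) its share in moved windows. It was in 0.483% of the regions' windows, 0.532% of shared regions off promoters and 0.450% of regions in introns beyond 50 kb. All shared regions had 0.953% and RefSeq promoters 1.79%. The sizes moved with the comparison: CAGCTG had 1.43 against other bases of the same regions, GGGCGGGG had 2.21 against shuffled letters and 14.5 without the flank, and TGACGTCA had 3.79 and 32.1.

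AP-1 letters had ratios of 1.30 and 1.52, and 0.725 over both replicates when no flank was added to the footprint. The lowest ratios among the 14 of 31 motifs with at least 20 matches in each replicate belonged to AGATAA, bound by GATA factors (0.585 and 0.617), TGTTTAC, bound by forkhead factors (0.609 and 0.624), the IRF consensus (0.734 and 0.507), ACAATNG, bound by SOX factors (0.987 and 0.804), and the NKX2 consensus (0.985 and 0.838). Intervals included 1 in both replicates for SOX and NKX2 and in replicate 1 for IRF. Against shuffled letters in the same footprints the ratio was 1.03 for GATA, 1.02 for FOX, 1.91 for IRF and 2.18 for NKX2, on the other side of 1. Of the 663 regions with AGATAA in the window, 9.95% had a match within a footprint in both replicates, whereas CTCF had 93.5%, GGGCGGGG 52.3% and CAGCTG 23.8%. The forms differ in length, with 12 letters for CTCF and 6 for AGATAA, so these shares are not on equal terms. AGATAA was in 11.9% of regions, 14.1% of windows 1 kb away and 11.2% of RefSeq promoters, open or not, TGTTTAC in 3.43%, 3.82% and 3.65%, and TGANTCA in 10.8%, 8.0% and 7.81%. In footprints of shared regions at promoters AGATAA was at 0.283% and 0.270%, against 0.823% and 0.857% in footprints of the regions described here. Other sites off promoters were like the regions, with 0.951% and 0.895% in introns beyond 50 kb and 0.887% and 0.838% on the upstream side. Over all other shared regions off promoters it was at 0.903% and 0.857%, with footprint ratios of 0.537 and 0.516.

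The regions were weaker than promoters and stronger than most distal sites. Their median signal of 1.04 and 0.836 gave a mean of 0.936 ± 0.14 (SD, n = 2). Promoters had medians of 2.39 and 2.15, and intergenic regions 1 to 10 kb upstream of a 5' end, the mirror of these introns, had 1.30 and 0.997. Introns 10 to 50 kb from the 5' end had 1.01 and 0.788, introns beyond 50 kb 0.865 and 0.662, and other intergenic regions 0.865 and 0.668. In each replicate the regions were thus above deeper introns, by 0.170 and 0.173 beyond 50 kb, and below the upstream side, by 0.270 and 0.161. With 2 replicates the exact sign-flip permutation test (two-sided) cannot give a p under 0.5, and it gave 0.5 for each of these differences. At the edges of the rule, 435 regions at 9 to 10 kb had medians of 1.00 and 0.806 and 458 intronic regions at 10 to 11 kb had 1.17 and 0.898. The 434 regions whose nearest start was 1.0 to 1.2 kb away had 0.979 and 0.865, and the 933 intronic regions at 0.8 to 1.0 kb, left out by the rule, had 1.00 and 0.865.

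**Figure D2:**
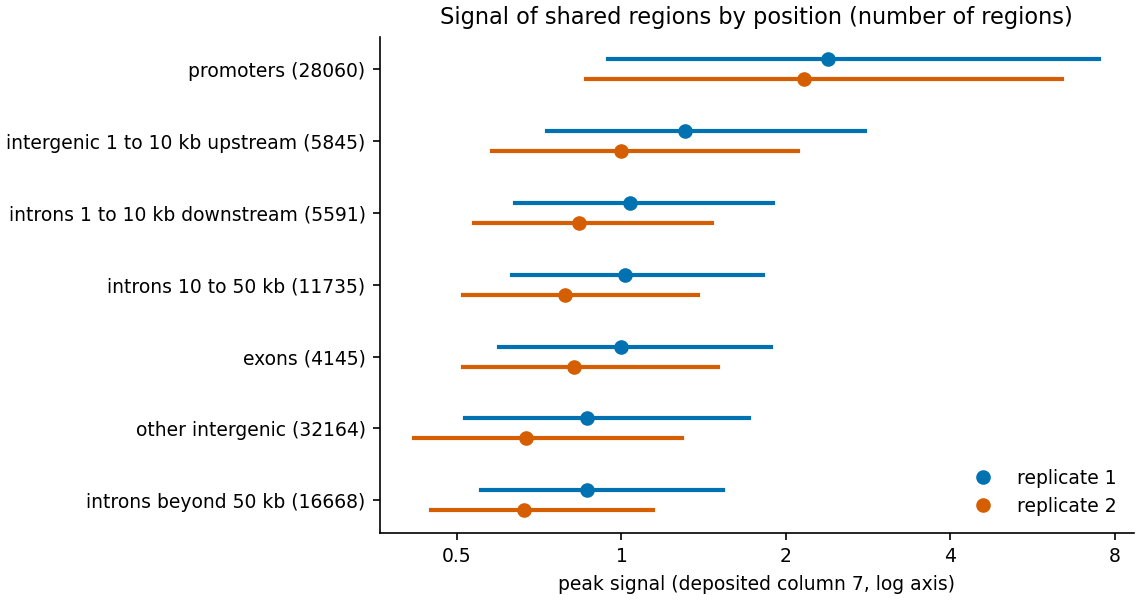
Peak signal of shared regions by position on a log axis, for replicate 1 (blue) and replicate 2 (orange). Points are medians and lines run from the lower to the upper quartile over regions, so they show spread among regions and not replicate error. Introns 1 to 10 kb downstream, with medians of 1.04 and 0.836, lie below promoters and below the upstream side in both replicates.

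Most regions differed between replicates by a like factor. The log2 ratio of replicate 1 to replicate 2 had a median of 0.31 and an SD over regions of 0.33, and 13 regions were over 2-fold from that median. The regions named next were not among these 13, with log2 ratios from -0.57 for Nanos3 to 1.08 for Prokr1. Among regions above the median in both replicates, Prokr1 (a prokineticin receptor gene), Igf1 (insulin-like growth factor 1) and Dtd2 were the most shifted to replicate 1, with 1.78 and 0.842, 2.22 and 1.05, and 2.08 and 0.985. Nanos3 was the most shifted to replicate 2, with 1.09 and 1.62. These genes were chosen by this value, and a weaker region of Hif3a was among those shifted to replicate 2, with 1.43 and 2.05.

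On the X chromosome the regions were fewer and weaker than on any autosome. It had 24.6 pairs of a region and a gene per Mb of eligible intron, where chromosome 14, the lowest autosome by this measure, had 40.2. Its 116 regions had median signals of 0.511 and 0.439. Chromosome 13, the autosome with the weakest regions, had 0.851 and 0.674. All animals were male, and the part of X dosage in this was not tested. A single region lay on the Y chromosome.

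Footprints were found in nearly all of the regions. There were 2.50 per region in replicate 1 and 2.48 in replicate 2, 13981 and 13890 in all, and 91.8% and 91.1% of regions held at least 1. Each replicate had a footprint in 4772 regions (85.4%), close to the 84.1% of all shared regions, and neither had one in 140. In the smaller, stricter peak set of each replicate, 61.1% of the regions were found in both, against 68.4% of all shared regions. This share was 83.8% in promoters, 62.7% in all shared regions off promoters and 59.5% in introns beyond 50 kb, so the regions were near other sites off promoters. Promoters had 3.33 and 3.49 footprints per region, the upstream side 2.78 and 2.76, and introns beyond 50 kb 2.38 and 2.26. The regions had a median width of 200 bp and 11.1 footprints per kb in replicate 1 and 11 in replicate 2, where introns beyond 50 kb had 11.1 and 10.5 and the upstream side 12.7 and 12.6.

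The number of footprints followed the signal. In the weakest 25% of regions there were 1.45 footprints per region in replicate 1 and 1.38 in replicate 2, and in the strongest 5% there were 4.09 and 4.04. Both values rest on the same reads, and the part of read depth in this was not tested. The most footprints lay in a region of Bahcc1, 1000 bp wide, with 12 and 14, and in one of Ltbp4 (a TGF-beta binding protein of the matrix), 420 bp wide, with 13 and 10 at signals of 11.1 and 10.1. These genes were chosen by their counts.

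Density rose toward the start. Per Mb of eligible intron, that is intron over 1 kb from every protein-coding start, there were 70.8 regions 1 to 2 kb downstream, 60.9 at 2 to 3 kb, 49.3 at 3 to 4 kb, between 42.3 and 45.8 from 4 to 9 kb and 38.4 at 9 to 10 kb. Upstream of 5' ends the density went from 57.5 at 1 to 2 kb to 41.3 at 9 to 10 kb. Over the whole distance it was 48.8 per Mb downstream and 46.8 upstream.

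The rise was seen in genes with an open promoter. In these the density fell from 94.9 per Mb at 1 to 2 kb to 42.3 at 9 to 10 kb, and in genes without an open promoter it was 18.5 and 22.2. CpG-rich windows, with GC over 50% and a CpG ratio over 0.6, made up 14.6% of regions at 1 to 2 kb and 2.74% at 9 to 10 kb. RefSeq mRNA starts, which the rule did not use, lay within 1 kb of 14.7% and 2.51% of regions in these bins. With all regions near such starts left out, the first bin had 60.4 regions per Mb and the last 37.4. Here the eligible intron of each bin was left unchanged and still held intron near such starts. Both values are therefore lowered by construction, and density over intron away from such starts was not computed.

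**Figure D3:**
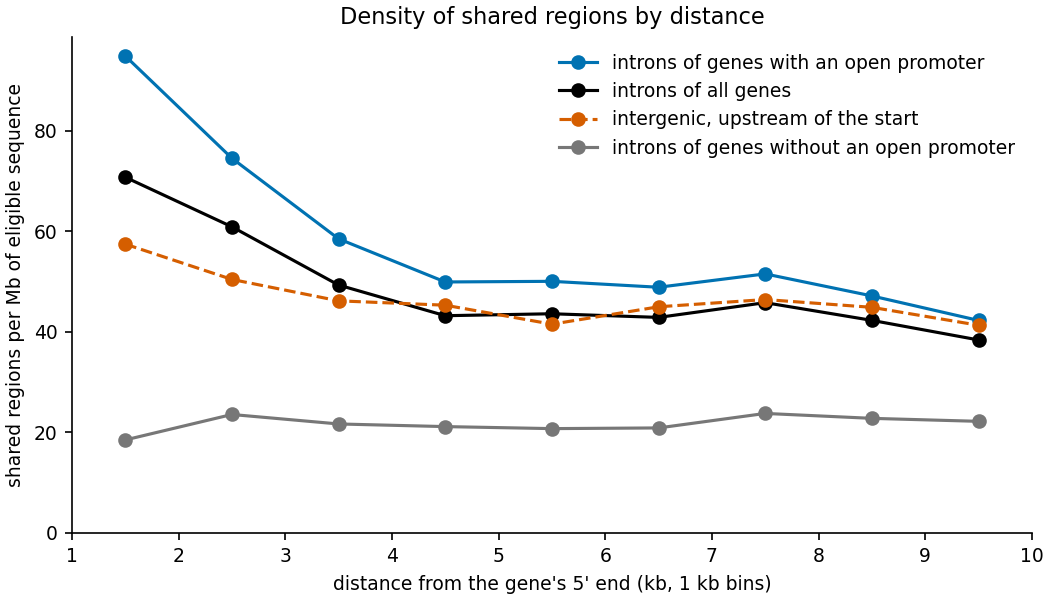
Shared regions per Mb of eligible sequence in 1 kb bins of distance from the gene's 5' end. Lines show introns of all genes (black), of genes with an open promoter (blue) and without one (grey), and intergenic sequence upstream of the start (orange, dashed). Introns of genes with an open promoter fall from 94.9 to 42.3, while those without stay between 18.5 and 23.8.

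Where a region sat in the gene made a modest difference. The first intron, of a transcript that starts at the gene's 5' end, held 3668 regions (65.6%). These had medians of 1.00 and 0.812, and 83.3% had a footprint in both replicates. The 1923 in other introns had 1.12 and 0.883 and 89.2%. GC content had a median of 52.3% in the regions, 50% in introns beyond 50 kb and 62% in promoters. Windows were CpG-rich in 326 regions (5.83%), against 1.10% of regions in introns beyond 50 kb, 8.74% on the upstream side and 57.9% of promoters. The CpG-rich regions were stronger, with medians of 1.59 and 1.47, than the others with 1.02 and 0.812. A RefSeq mRNA start, curated or predicted, lay within 1 kb of 353 regions (6.31%) and a start of a noncoding gene of 253 (4.53%). A curated RefSeq mRNA start lay within 1 kb of only 54 regions (0.966%), so most of the 353 rest on predicted transcripts. Signal near RefSeq mRNA starts had medians of 1.18 and 0.991.

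Few genes held many regions. Of 17765 genes with at least 1 kb of eligible intron, 3948 (22.2%) had a region. Over all genes 2846 had 1 region, 770 had 2, 259 had 3 and 110 had 4 or more. Genes with more regions also had more eligible intron, a median of 6.88 kb in genes with none and 8.55 kb in those with 4 or more. Host genes were more often open, 88.2% against 74.0% of genes with eligible intron, and the share went from 69.9% with no region to 86.4% with 1, 91.5% with 2, 93.8% with 3 and 95.5% with 4 or more. The strength of the open promoters did not follow this order, since their median signal (mean of replicates) was 6.83 ± 0.80 (SD, n = 2) with no region, 5.84 ± 0.37 with 3 and 6.95 ± 0.35 with 4 or more.

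Soga1, which encodes a regulator of autophagy and glucose output, had the most, 8 regions from 1.5 to 9.70 kb downstream, all in the first intron. The strongest, at chr2:157077661-157077840, had 9.76 in replicate 1 and 7.62 in replicate 2. The next, at 7.47 kb, had 4.13 and 3.84 with 4 and 8 footprints, and the others ran from 0.943 to 2.25 in replicate 1. A RefSeq mRNA start lay within 1 kb of 2 of the 8.

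Bcl6 and Jup had 7 each, all in the first intron. In Bcl6 the regions at 5.38 and 6.37 kb, with 5.41 and 4.42 and with 5.07 and 3.23, each held KLF and SP letters in a footprint of both replicates. The strongest was the region with CTCF letters at 4.48 kb. In Jup the strongest region, at 6.38 kb, had 6.04 and 4.14, and those at 8.97 and 9.60 kb had 4.44 and 3.28 and 4.01 and 3.44. Jup regions held 34 and 37 footprints in all, the most of the 25 genes with most regions, where Soga1 had 25 and 27 and Bcl6 17 and 23. The promoter of Jup was itself strong, at 23.3 and 18.1.

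Genes with 6 regions were Gm11146 (a predicted gene), Nfia (a nuclear factor I protein), Ntf3 (neurotrophin-3), Gata4 (a core cardiac transcription factor), Carhsp1 and Inf2 (a formin that shapes actin). In Gata4 they lay at 1.89, 2.43, 2.92, 3.42, 4.38 and 5.67 kb. The region at 4.38 kb was the strongest, with 2.26 and 1.78, and the other 5 stayed between 0.610 and 0.967 in both replicates. Summed over the 6, Gata4 had 6.23 and 6.12, with 16 footprints in each replicate, against promoter signals of 7.43 and 6.51. Nfia had 1 strong region, 4.62 and 3.21 at 2.48 kb, and 5 under 1 in each replicate. Ntf3 had a weak promoter, 1.34 and 1.22, and its regions went from 0.390 to 1.69 in replicate 1 and from 0.394 to 1.80 in replicate 2. The regions of Gm11146 lay in later introns, 5 of the 6 within 1 kb of the start of a noncoding gene, and its promoter was not open.

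In all, 39 genes had 5 or more, and the next 16 by summed signal had 5 each. Ccnd3 led them, with 36 in replicate 1 and 25.3 in replicate 2 summed over its 5 regions. The region printed above had 19.0 and 14.0, above the strongest promoter peak of the gene at 15.1 and 10.5, and one at 3.10 kb had 12.9 and 8.07. Kdm6b (a histone H3 lysine 27 demethylase) had 30.3 and 23.3, with no open promoter at the GENCODE starts, but all 5 of its regions lay within 1 kb of a RefSeq mRNA start. The others were Ptp4a3 (a phosphatase), Ripor1, Plxnb2 (a semaphorin receptor), Igfbp5 (an IGF-binding protein), Rara (retinoic acid receptor alpha), Gnai2 (a G protein subunit), Lif (a cytokine of the interleukin-6 family), Rnd3, Bicral (a chromatin remodelling subunit), Ahnak2, Pxn (paxillin of focal adhesions), Adam19 (a metalloprotease), Trpm1 (an ion channel) and Tead3 (a Hippo pathway factor). Their summed signals went from 8.85 to 16.9 in replicate 1 and from 7.16 to 14.4 in replicate 2. In Lif the strongest region, 6.73 and 5.56 at 1.42 kb, was above the strongest promoter peak, 2.11 and 3.06. In Ahnak2 it was 3.74 and 3.51 at 8.35 kb, above 0.823 and 0.734.

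Of the 25 genes, 13 stayed among the first 25 with the smaller peak set, 17 without regions near RefSeq mRNA starts, 8 with replicate 2 alone and 12 with replicate 1 alone. With 1 replicate alone, peaks that the other lacked also counted, and Hdac5 led in replicate 2 with 13 and Plxnb2 in replicate 1 with 10.

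**Figure D4:**
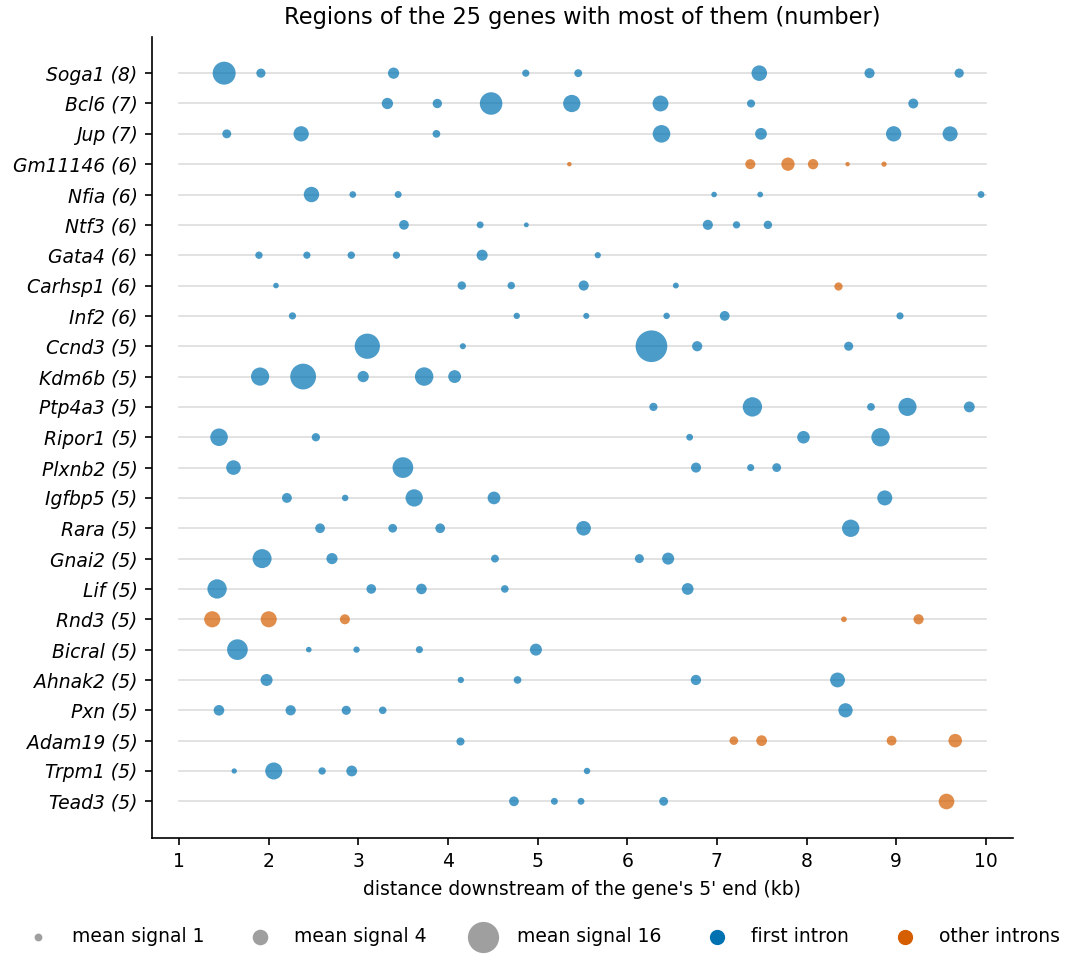
Position of every region of the 25 genes with most regions, by distance downstream of the gene's 5' end, with the number of regions after each name. The area of a point is proportional to the mean signal of the replicates, blue points lie in the first intron and orange points in others. The strongest points are in Ccnd3 and Kdm6b, while Gata4, Ntf3 and Inf2 hold rows of small points.

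Genes of heart cells held such regions more often than the 22.2% of all eligible genes, and so did neuronal genes, described here by counts without a test of the lists. Of 29 cardiac transcription factors 14 had one (48.3%), with 216 regions per Mb of eligible intron where all genes had 48.8. That density leans on few genes, since of the 37 regions of this list Nfia and Gata4 held 6 each and Mef2d 5. Of 34 genes of contraction and calcium handling 15 had one (94.5 per Mb), and of 16 for ion channels and connexins 9 (135 per Mb). Fuel use had 9 of 22 (123 per Mb), fibroblasts 9 of 16 (145 per Mb), growth and TGF-beta signalling 9 of 17 (135 per Mb), and smooth muscle and pericytes 6 of 14 (104 per Mb). Endothelium had 10 of 23, and at 67.0 per Mb was nearer the value of all genes. Neurons and glia had 9 of 18 (96.3 per Mb). The median number of regions was 1 for ion channels, fibroblasts and growth signalling, 0.5 for neurons and glia and 0 for the other lists and for all genes.

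Hepatocyte genes had the lowest share, with regions in 1 of 17 (16.4 per Mb), namely Ttr (transthyretin), whose 2 regions had 0.780 and 0.609, and 0.383 and 0.400. Leukocytes had 4 of 14 (28.6%, 58.0 per Mb), skeletal muscle 2 of 11 (18.2%, 26.7 per Mb) and ubiquitous genes 2 of 10 (20%, 36.3 per Mb). These 3 changed sides of the value for all genes with the smaller peak set, where they had 14.3%, 18.2% and 20% against 15.4%. Open promoters were at 28 of the 29 cardiac transcription factors, 14 of the 18 neuronal genes and 3 of the 17 hepatocyte genes, and 26.5% of open genes against 10.1% of the others had a region over the genome.

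**Figure D5:**
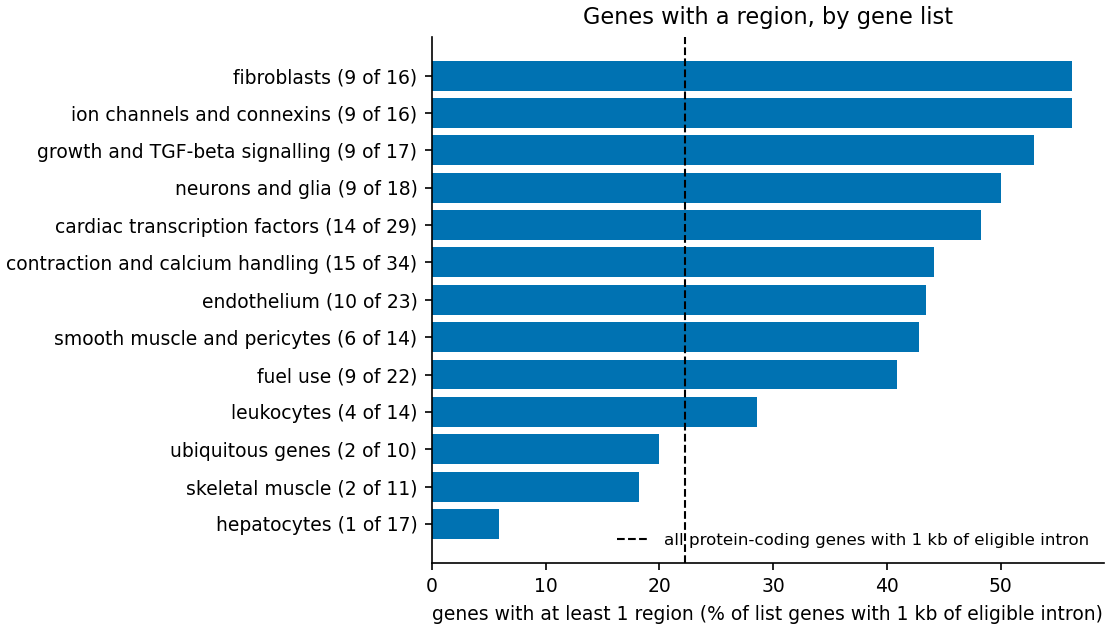
Percentage of genes with at least 1 region in 13 gene lists, with the number of genes with a region and the number with at least 1 kb of eligible intron after each name. The dashed line marks 22.2%, the value for all such protein-coding genes. Hepatocyte genes, at 1 of 17, are lowest, and the fibroblast and ion channel lists, each at 9 of 16, are highest.

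Several genes that define heart cells had no such region. Lacking one was the usual state, since 26.5% of open genes and 22.2% of all eligible genes had a region. Ttn (titin), Myh6 (alpha myosin heavy chain), Tnnt2 (cardiac troponin T), Tbx5 and Mef2c (cardiac transcription factors), and Kdr, Erg and Pdgfra (endothelial and fibroblast genes) had none. Each had an open promoter, from 0.979 and 0.836 for Tbx5 to 7.94 and 6.97 for Pdgfra. Eligible intron was not lacking in Erg (9.0 kb), Mef2c (8.79 kb) or Kdr (8.54 kb), while Tnnt2 had 1.48 kb. Pdgfra had 3.0 kb, Myh6 5.05 kb, Ttn 5.13 kb and Tbx5 5.15 kb. Ryr2, the calcium release channel, had 1 region of 0.794 and 0.710 at 8.57 kb. Hand2 had 1, of 1.05 and 0.794, and Tead1 had 2, of 1.18 and 1.06 at 1.72 kb and of 1.78 and 1.45 at 5.78 kb. The Tead1 region at 1.72 kb held a glucocorticoid receptor match in a footprint of both replicates.

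Genes leading the lists differed in how their signal was spread over regions. The 5 regions of Mef2d, which encodes a myocyte enhancer factor, went from 1.07 to 2.55 in replicate 1 and from 1.25 to 2.11 in replicate 2. Kcnh2, the channel of the rapid delayed rectifier current, had 4 regions with a sum of 6.68 and 6.12, and 3 of them lay within 1 kb of a RefSeq mRNA start. Loxl1, a collagen and elastin cross-linking enzyme, led the fibroblast list with 4 regions and 16 and 13 footprints, and its strongest region had 3.26 and 2.32. Slc27a1, a fatty acid transporter, had 3, of which the one at 4.14 kb had 3.11 and 2.41 and the others less than 1. Igf1r, the IGF1 receptor, likewise had 1 strong region of 3, 7.10 and 4.73 at 9.24 kb. Tek, the angiopoietin receptor of endothelium, had 2 regions with a sum of 6.96 and 5.51, and its strongest promoter peak was 1.53 and 1.43. Xirp1, an actin-binding protein of the intercalated disc, had 2 with a sum of 5.47 and 4.08, and a promoter at 0.865 and 0.889. Casq1, the calsequestrin of fast muscle, had a single region of 14.6 and 13.8, and its promoter had 3.72 and 2.49. Gad1, which makes the transmitter GABA, had 2 with a sum of 5.67 and 4.13, and a promoter at 0.936 and 0.889. Csf1r, the macrophage growth factor receptor, had 1 region of 1.94 and 1.37, although no peak lay at its promoter.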

How the data were processed

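Peak signals (column 7 of each narrowPeak list) were deposited by the authors per replicate, from that replicate's filtered mm10 alignment, per the deposited read-me files. These files name a read-depth normalized track from the same alignment, but do not state the scaling of the peak signal, so levels may differ between replicates by a scale factor. Depth per sample is unknown, and the peak caller and the handling of CAST/EiJ reads are not stated. The larger of the 2 deposited peak sets of each replicate was used, and the smaller as an alternative. The deposited FDR list (false discovery rates, read as q-values of the p-value type, all under 0.05) was an input to the authors' footprints, per the same files. A footprint score of 0.01, deposited in each line without a stated meaning, was not used.

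Touching peaks of both replicates were merged, and a footprint belonged to the region that held its middle base. Classes were assigned with GENCODE M21, alternative starts came from RefSeq mRNAs, curated and predicted, and sequences came from the GRCm38.p6 reference. The share of footprints (10 bp added either side) with a consensus match was divided by the share in equally long windows shifted by 200 bp to each side and free of footprints. Intervals of shares and ratios are 95% exact binomial ones, and they cover counting error only. Classes were compared over 2 replicates, since regions of a library share their source and are not replicates. The labels do not state that every replicate is 1 animal. Named were the 25 genes with most regions, the 10 strongest regions, the 3 leading genes of each list where they are described, 12 fixed genes and the 5 highest and 5 lowest motifs with at least 20 matches. The regions and lists were chosen with earlier results of these data known. Scripts, tested on simulated data, ran in Python 3.11.15 with scipy 1.17.1, numba 0.67.0, pandas 2.3.3 and numpy 2.4.6. A result that needs withheld items is not reported here.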

Additional observations from a re-analysis of the deposited data

How the results depend on the processing

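No paired analysis was possible because there is a single group. Median signal (0.936 as the mean of replicates) was 1.42 with the smaller peak set, 1.55 with the upper 50% of peaks by signal, and 0.698 to 0.766 with 1 replicate alone. The number of regions (5591) was 3448 with the smaller set, 3110 with the upper 50% and 3668 in the first intron. Footprints per region (2.49) were 2.98 with the smaller set, 2.58 with peaks covering each other by 50%, 2.42 in the first intron, 3.12 with the upper 50%, 2.52 by any overlap of 1 base and 2.02 to 2.12 with 1 replicate alone. Of the 25 genes with most regions, 13 stayed with the smaller set, 15 at 2 kb from starts, 16 with the upper 50% and 8 to 12 with 1 replicate alone. Stricter peak sets hold fewer and stronger peaks by construction, and the cause of the other shifts was not tested. Reversed directions were AP-1 without flank (0.725), and, against shuffled letters, GATA (1.03), FOX (1.02), IRF (1.91) and NKX2 (2.18). List shares that crossed the value for all genes with the smaller set were leukocytes (14.3%), skeletal muscle (18.2%) and ubiquitous genes (20%), against 15.4%. Of 139 alternatives, 44 for the main results and 57 for single lists and motifs counted as kept. Signal, footprints per region and the CTCF share of footprints had to stay within the SD between replicates. Counts, ratios, GC content and other shares had to stay within 1.5 times, and motif ratios also on the same side of 1. The log2 ratio of replicates had to stay within its SD over regions. Shares of single lists had only to stay on the same side of the value for all genes, however far they moved. Alternatives that left out regions near RefSeq starts or with repeated words were added after seeing the data. Read depth is unknown, so weak regions cannot be separated from low coverage, and 2 replicates give no p under 0.5.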

Other observations

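Among genes with at least 2 kb of eligible intron, Lst1, an immune gene, had the most regions per kb, 3 in 2.01 kb. Also among the 10 densest, and chosen after their values were seen, were Lasp1 (an actin-binding protein) with 3 in 2.69 kb and Fhl3 (a LIM protein of muscle) with 5 in 5.36 kb. Srf, the serum response factor that drives muscle genes, had 2 in 2.11 kb, with a sum of 15.3 in replicate 1 and 11.4 in replicate 2, and 9 and 8 footprints.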
